A study of Homo sapiens with 2 samples.

Results

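The genes described here encode the chains of the integrins and of the laminins. They were taken from the deposited expression table by symbol, from the numbered and lettered ITGA, ITGB, LAMA, LAMB and LAMC series, and 37 of the 21382 genes are described. Of the 37 genes, 18 encode integrin α chains, 8 integrin β chains and 11 laminin chains. Total RNA of RC77 T/E and of MDA PCa 2b, which are established lines of human prostate cancer cells, was sequenced from untreated cultures, with a single library for each. MDA PCa 2b was grown in a modified Ham's F-12 medium with fetal bovine serum, cholera toxin, epidermal growth factor, hydrocortisone and insulin. RC77 T/E, a line immortalized with papillomavirus E6 and E7 genes, was grown in a serum-free keratinocyte medium to which bovine pituitary extract and epidermal growth factor were added. The cell line and its medium therefore cannot be told apart. No value has a replicate error and no difference between the cell lines has a replicate check.

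Integrins are receptors that span the plasma membrane as a pair of an α and a β chain, and the pairing decides which ligand is bound. Laminins are cross-shaped or T-shaped proteins of the basement membrane, each assembled from an α, a β and a γ chain. In glandular epithelia such as the prostate, basal cells hold on to laminin-332 through integrin α6β4 in hemidesmosomes, which tie the basement membrane to the keratin filaments, while β1 integrins connect the matrix to actin.

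Expression was deposited as TPM, which corrects reads for gene length and library total, so levels can be set beside each other between genes. No read counts are held in such values, so the depth of the libraries is unknown and intervals for counting error cannot be computed. In the table, many values of 1 TPM or more had lost their decimal mark. The mark was put back from the listed mean and standard error. For 10 of the 37 genes more than 1 place of the mark matched, and both or all 3 values are then given, the mark standing at the same place in both cell lines. Neither the plain ratio between the cell lines nor the side of 1 TPM depends on it. As a check of the labels, prostate luminal and basal markers were examined. All 6 luminal markers examined reached 1 TPM in MDA PCa 2b. In RC77 T/E the keratins KRT8 and KRT18 did, KLK3, KLK2 and HOXB13 are listed at 0, and TMPRSS2 was at 0.108 TPM beside 482.9 TPM in MDA PCa 2b. Of 6 basal markers, 2 reached 1 TPM in MDA PCa 2b and all 6 in RC77 T/E, where the basal keratin KRT5 was at 4027 TPM. Where a pair of values stands without names, MDA PCa 2b comes first.

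At a threshold of 1 TPM, 15 of the 37 chain genes described were expressed in MDA PCa 2b against 21 in RC77 T/E, or 40.5% and 56.8%. Among all genes the shares were 49.6% and 52.8%, and among protein-coding genes 57.9% and 61.7%. These 15 chains were expressed in both cell lines, and ITGB2, ITGB6, ITGB8, LAMA1, LAMB3 and LAMC3 in RC77 T/E alone. The expressed chains were mostly higher in RC77 T/E. Of the 21 chains whose mean reached 1 TPM, 15 were higher by 2-fold or more in RC77 T/E on the log2 scale with a pseudocount of 1 TPM, and 6 lay within 2-fold. Among all 11624 genes with such a mean, 19.4% were higher by 2-fold or more in RC77 T/E against 20.0% in MDA PCa 2b. For the integrin chains the median log2 ratio of RC77 T/E over MDA PCa 2b was 2.92, for the laminin chains 2.56 and for all genes -0.15. The chains expressed in RC77 T/E alone met the mean only through that line. All of them are among the 15 and enter these medians, so the count follows in part from the filter. Centring all genes on their median, or scaling the libraries to their upper quartile, turned the direction of none of the 21 chains. RNA from these cultures gives an average, so fewer cells that express a gene and less RNA per cell cannot be told apart.

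**Figure D1:**
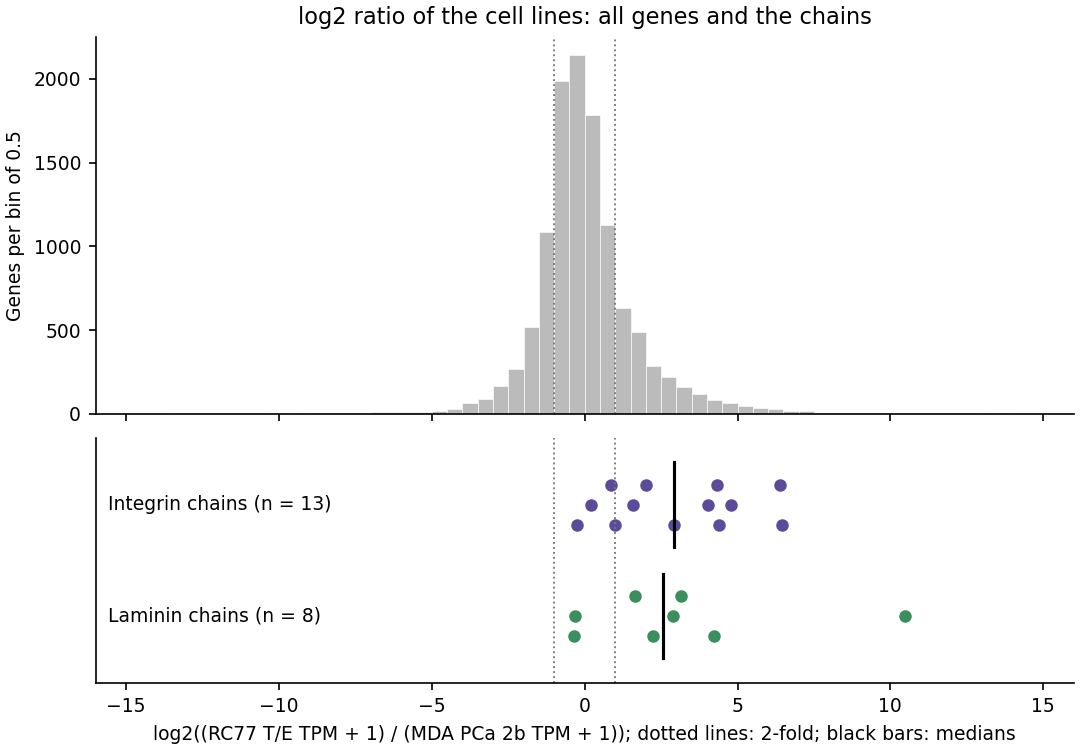
The upper panel is a histogram of the log2 ratio of RC77 T/E over MDA PCa 2b (pseudocount 1 TPM) over the 11624 genes whose mean reached 1 TPM, and the lower panel gives each of the 13 integrin and 8 laminin chains as a point with the median as a bar. Most chains lie to the right of the bulk of all genes, with LAMB3 at 10.48 farthest right and LAMB2 at -0.34 farthest left. ITGB2, ITGB6, ITGB8, LAMA1, LAMB3 and LAMC3 met the mean only through RC77 T/E.

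A ratio without a pseudocount can be given for the 15 chains that reached 1 TPM in both cell lines, and it does not depend on open marks. It ran from 0.736 to 103 with a median of 8.42, against a median of 0.838 over the 9767 genes at 1 TPM or more in both. A ratio of at least 2 in favour of RC77 T/E was found in 8 of 10 integrin chains and 3 of 5 laminin chains, and in 14.1% of those genes. In favour of MDA PCa 2b no chain reached a ratio of 2, while 22.2% of those genes did. The chains expressed in both lines without such a ratio were ITGA1, ITGAE, LAMB2 and LAMC1.

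The α chains of the laminin-binding integrins are ITGA3, ITGA6 and ITGA7. ITGA6 (ENSG00000091409, chromosome 2 of GRCh38, 172427354 to 172506459) pairs with either β1 or β4. It was at 42.2 or 421.8 TPM in RC77 T/E compared with 1.61 or 16.1 TPM in MDA PCa 2b, 26.2 times as high in RC77 T/E. ITGA3, which pairs with β1, was at 1.02 or 10.2 TPM in MDA PCa 2b, compared with 39.7 or 396.8 TPM in RC77 T/E, a ratio of 39.0. Both α chains were thus much higher in RC77 T/E, while the muscle laminin receptor chain ITGA7 was at 0.243 and 0.328 TPM, below the threshold in both.

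ITGB4 (chromosome 17, 75721328 to 75757818), whose long cytoplasmic tail docks on plectin, had the highest level of the integrin chains with a fixed mark in RC77 T/E. It was at 4.51 TPM in MDA PCa 2b against 462.8 TPM in RC77 T/E, 103 times as high. Between 177 and 1119 of all genes were higher than ITGB4 in RC77 T/E, depending on the open marks of other genes. Set against its partner ITGA6 within RC77 T/E, the ITGB4 level was 1.10 or 10.97 times that of ITGA6, so β4 transcript exceeded α6 transcript at either mark. In MDA PCa 2b the same quotient was 0.280 or 2.80 and the order depends on the mark. ITGB4 overlaps GALK1 on the opposite strand, whose level at the lowest mark was 19.7 TPM in MDA PCa 2b against 10.3 TPM in RC77 T/E. The library kit kept the strand, but whether the deposited values use it is not stated. Antisense genes that were not analysed here overlap ITGA1, ITGA2, ITGA5, ITGA6, ITGAE, ITGAV, ITGB5, ITGB8, LAMA1, LAMA5, LAMB1 and LAMC1.

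Integrins that bind collagen share β1 as their partner. ITGA2, a collagen receptor chain of epithelial cells and platelets, was at 83.3 or 833.4 TPM in RC77 T/E compared with 2.99 or 29.9 TPM in MDA PCa 2b, a ratio of 27.9. ITGA1, its neighbour on chromosome 5 at a distance of 30.1 kb, was at 16.8 TPM in MDA PCa 2b, compared with 19.4 TPM in RC77 T/E, a ratio of 1.16. So of these adjacent collagen receptor genes ITGA2 differed widely between the cell lines and ITGA1 hardly did. PELO lies inside ITGA1 on the same strand, where strand cannot separate reads, and was not analysed here. The other collagen-binding chains, ITGA10 and ITGA11, were under 1 TPM in both, at no more than 0.676 TPM.

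The integrins that recognise the RGD sequence of fibronectin and related ligands are built on ITGA5, ITGA8, ITGAV and ITGA2B. ITGA5, the fibronectin receptor chain, was at 3.63 TPM in MDA PCa 2b against 127.8 TPM in RC77 T/E, 35.2 times as high. ITGAV, which can pair with 5 β chains, was at 6.84 or 68.4 TPM in RC77 T/E compared with 2.92 or 29.2 TPM in MDA PCa 2b. Its ratio of 2.34 was far smaller than that of ITGA5, and with the pseudocount its log2 ratio was 0.999 at the lowest mark and 1.199 at the highest, on either side of 2-fold. ITGA8 is listed at 0 in RC77 T/E and was at 0.169 TPM in MDA PCa 2b. ITGA2B, the α chain of the platelet fibrinogen receptor, was at 0.0320 and 0.415 TPM, and its partner ITGB3 at 0.00818 and 0.0477 TPM. Of 6 platelet and megakaryocyte markers, ITGA2B among them, 1 reached 1 TPM in MDA PCa 2b and none in RC77 T/E. Their summed level was 1.67 TPM and 1.85 TPM, with 0 listed for PF4 and for GP9 in both lines.

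Of the expressed β partners of ITGAV, ITGB1, ITGB6 and ITGB8 had larger log2 ratios than ITGAV itself and ITGB5 a smaller one. ITGB6 (chromosome 2, 160099667 to 160200313), an epithelial chain that with αV activates latent TGF-β, was at 0.311 TPM in MDA PCa 2b, compared with 114.3 TPM in RC77 T/E, a log2 ratio of 6.46. ITGB8, whose αV heterodimer also binds latent TGF-β, was at 0.0894 TPM in MDA PCa 2b against 3.39 TPM in RC77 T/E, a log2 ratio of 2.01. Both were under the threshold in MDA PCa 2b and over it in RC77 T/E, where ITGB6 was 33.7 times as high as ITGB8. ITGB5, a vitronectin receptor chain found in many cell types, was at 4.44, 44.4 or 443.6 TPM in RC77 T/E compared with 2.03, 20.3 or 202.5 TPM in MDA PCa 2b, a ratio of 2.19. ITGB6 alone was at 1.67 or 16.7 times the level of ITGAV in RC77 T/E and at 0.0107 or 0.107 times in MDA PCa 2b. The share of ITGAV protein that each β chain takes up was not measured.

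ITGB1 (chromosome 10, 32887273 to 33005792) is the β chain with the most partners. It was at 7.62 or 76.2 TPM in MDA PCa 2b, compared with 64.1 or 641.3 TPM in RC77 T/E, 8.42 times as high in RC77 T/E. This ratio was smaller than those of its partners ITGA2, ITGA3, ITGA5 and ITGA6, which ran from 26.2 to 39.0, and larger than those of ITGA1 and ITGAV. Because marks are open on both sides of most of these pairs, the balance of β1 with a single α chain within a cell line is not determined. For ITGB1 over ITGA6 in RC77 T/E, for example, the quotient lies between 0.152 and 15.2.

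Among the chains of the leukocyte integrins, the β2 chain ITGB2 reached 1 TPM only in RC77 T/E, at 2.32 TPM beside 0.101 TPM in MDA PCa 2b, a log2 ratio of 1.59. None of its 4 α partners ITGAL, ITGAM, ITGAX and ITGAD exceeded 0.0796 TPM in either line. ITGB2-AS1, which overlaps ITGB2 on the opposite strand, was at 0.0186 TPM in MDA PCa 2b against 1.41 TPM in RC77 T/E, and its part in the ITGB2 value was not tested. Of 6 leukocyte markers, 1 reached 1 TPM in MDA PCa 2b against 4 in RC77 T/E, and their sum was 77.3 to 763.7 TPM and 80.3 to 143.8 TPM, carried by LCP1 in MDA PCa 2b and by CD68, CORO1A and LCP1 in RC77 T/E. PTPRC, the pan-leukocyte marker, has a listed 0 in RC77 T/E beside 0.0113 TPM in MDA PCa 2b. The T cell marker CD3E was at 0.0126 TPM in RC77 T/E beside a listed 0 in MDA PCa 2b. CD14, a monocyte marker, was higher in RC77 T/E like ITGB2, at 4.92 TPM beside 0.0730 TPM in MDA PCa 2b, and its part in the ITGB2 value was not tested. ITGAE, the α chain of the E-cadherin receptor of T cells in epithelia, was at 1.05 TPM in RC77 T/E compared with 1.42 TPM in MDA PCa 2b, 1.36 times as high in MDA PCa 2b. Its partner ITGB7 was under the threshold in both, at 0.0568 and 0.319 TPM. HASPIN, which overlaps ITGAE on the opposite strand, was not analysed here.

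In all, 13 integrin chains were under 1 TPM in both cell lines: ITGA4, ITGA7, ITGA8, ITGA9, ITGA10, ITGA11, ITGA2B, ITGAD, ITGAL, ITGAM, ITGAX, ITGB3 and ITGB7. Their highest level was 0.265 TPM in MDA PCa 2b against 0.686 TPM in RC77 T/E, the latter for ITGA4, which is listed at 0 in MDA PCa 2b. Of these 13 low chains, 5 were higher in MDA PCa 2b, 7 were higher in RC77 T/E, and ITGAD is listed at 0 in both. An exact 0 in a table without counts can be a failed estimate. None of 72 cytoplasmic ribosomal protein genes, which every cell uses, is listed at 0 in either line. None of them was under the threshold in RC77 T/E, so they do not bear on low genes. A 0 in RC77 T/E is carried by 132 protein-coding genes that were expressed in MDA PCa 2b, and 174 show the reverse. Whether a listed 0 of a low chain is a failed estimate was not tested. The 7 α chains that were expressed were the same in both cell lines, and the β chains were 3 in MDA PCa 2b against 6 in RC77 T/E. The values nearest the threshold were 1.02 TPM for ITGA3 in MDA PCa 2b at its lower mark and 1.05 TPM for ITGAE in RC77 T/E above it, and 0.686 TPM for ITGA4 in RC77 T/E below it.

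**Figure D2:**
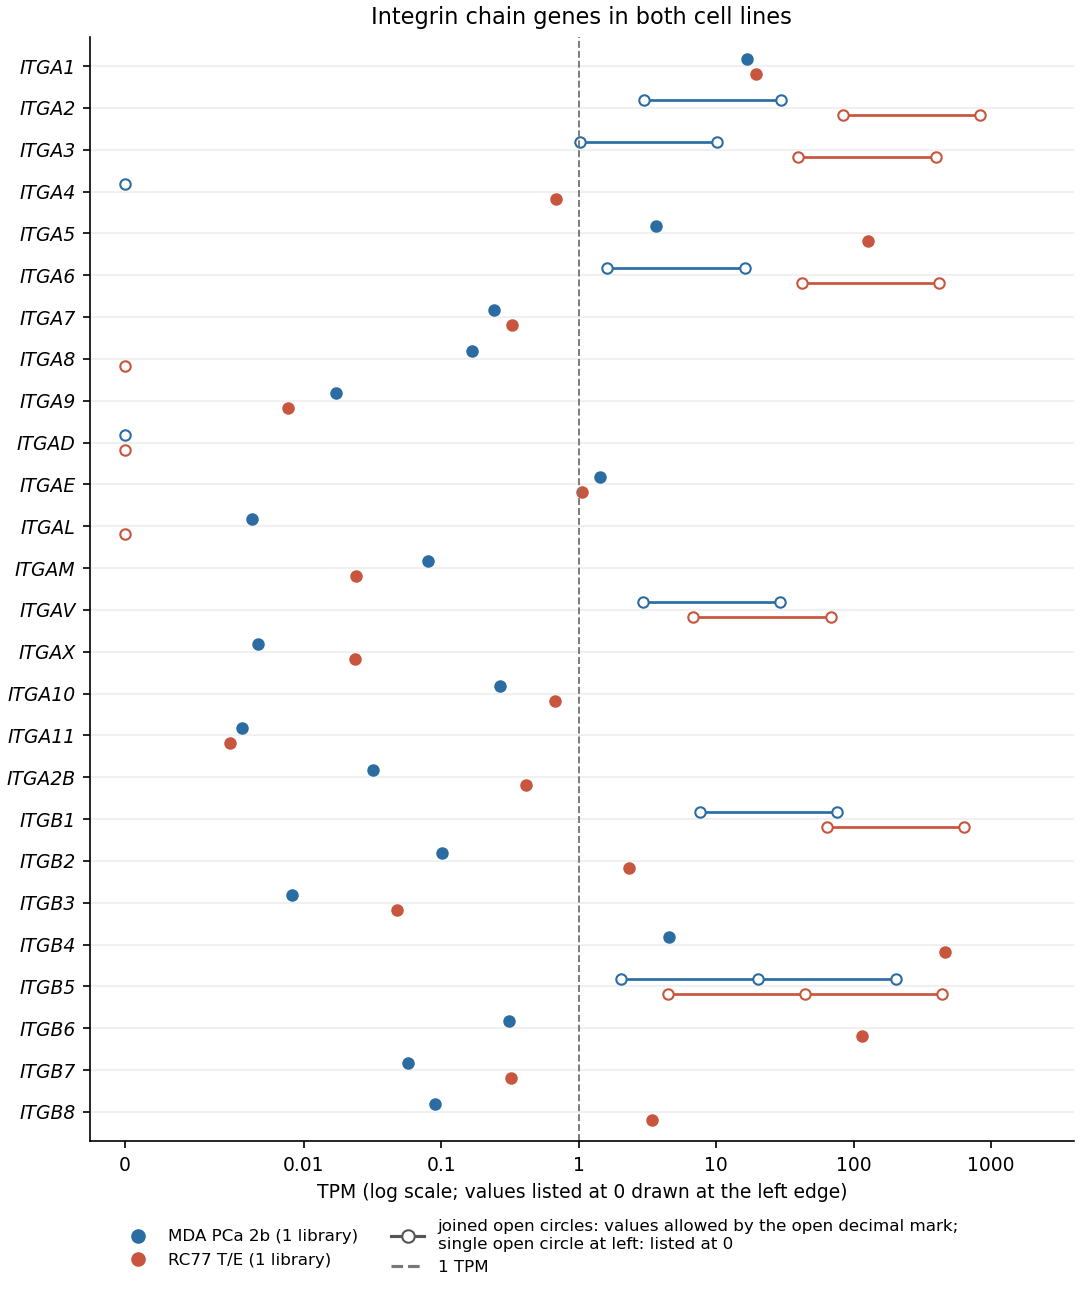
TPM of the 26 integrin chain genes on a log axis, blue for MDA PCa 2b and red for RC77 T/E, 1 library each. Joined open circles are the values that an open decimal mark allows, single open circles at the left edge are values listed at 0, and the dashed line is 1 TPM. ITGA2, ITGA3, ITGA5, ITGA6, ITGB1, ITGB4 and ITGB6 lie well to the right in RC77 T/E, and 13 chains stay left of the line in both.

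Of the laminin chains, LAMB3 (ENSG00000196878, chromosome 1, 209614870 to 209652425) showed the widest gap. It encodes the β3 chain of laminin-332 and was at 0.195 TPM in MDA PCa 2b, compared with 1702 TPM in RC77 T/E, a log2 ratio of 10.48. In RC77 T/E 70 of all genes were higher than LAMB3. LAMA3 (chromosome 18, 23689453 to 23956222), the α3 chain of the same trimer, was at 4.01 or 40.1 TPM in MDA PCa 2b against 92.8 or 927.8 TPM in RC77 T/E, 23.1 times as high. Within RC77 T/E the level of LAMB3 was 1.83 or 18.3 times that of LAMA3.

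Transcription start regions are shown for ITGA6, LAMA3 and LAMB3, which were chosen as chains of the α6β4 receptor and its ligand laminin-332. Each of these genes was higher in RC77 T/E by at least 23.1 times. For ITGB4, the other chain of the receptor, no promoter was found in the RefSeq set. Each has 250 bases before and 50 after the RefSeq start on GRCh38.p14, written 5′ to 3′ on the strand of the gene. Capitals mark the letters TGANTCA, the core that AP-1 factors bind, which reads the same on both strands. The regions are chr2:172427336-172427635 on the plus strand for ITGA6, chr18:23872770-23873069 on the plus strand for LAMA3, and chr1:209651325-209651624 on the minus strand for LAMB3.
ITGA6: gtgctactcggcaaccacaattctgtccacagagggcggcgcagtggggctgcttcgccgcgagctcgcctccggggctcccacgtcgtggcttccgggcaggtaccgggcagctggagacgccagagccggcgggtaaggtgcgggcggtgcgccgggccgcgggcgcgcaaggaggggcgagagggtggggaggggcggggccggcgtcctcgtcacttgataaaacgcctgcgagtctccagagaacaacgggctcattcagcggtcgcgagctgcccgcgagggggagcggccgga
LAMA3: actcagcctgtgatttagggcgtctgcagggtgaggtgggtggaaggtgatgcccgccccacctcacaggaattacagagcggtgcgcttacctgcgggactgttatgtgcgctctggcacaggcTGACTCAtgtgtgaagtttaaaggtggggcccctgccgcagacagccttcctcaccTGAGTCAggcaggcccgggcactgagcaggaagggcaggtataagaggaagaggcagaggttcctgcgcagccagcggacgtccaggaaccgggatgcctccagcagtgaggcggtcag
LAMB3: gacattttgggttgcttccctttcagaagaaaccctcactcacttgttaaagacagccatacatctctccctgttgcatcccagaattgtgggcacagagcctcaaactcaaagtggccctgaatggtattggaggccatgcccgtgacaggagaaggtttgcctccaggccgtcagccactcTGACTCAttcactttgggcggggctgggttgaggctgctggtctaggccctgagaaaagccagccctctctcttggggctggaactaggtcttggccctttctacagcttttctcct

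The ITGA6 region was rich in G and C, at 72% with 38 CpG, and held no TGANTCA. The LAMA3 region, whose start lies inside the listed gene, had 61.7% G and C and 13 CpG and held the motif at -125 and -69 from the start, and the LAMB3 region held it at -67, with 53.7% G and C and 3 CpG. Of all 35116 promoters of the RefSeq set, 7.71% held TGANTCA. A promoter was found for 26 of the 37 chain genes. It held the motif in 3 of 16 chains at 1 TPM or more in RC77 T/E, ITGA5, LAMA3 and LAMB3, and in 0 of 10 chains under it. The other motifs searched, on both strands, were the TATA box TATAAA, the GC box GGGCGG and the E-box CACCTG, held by 11.5%, 45% and 20.6% of all promoters. Among the same 16 and 10 chains, the GC box was held by 11 and 2, the E-box by 4 and 2, and TATAAA by 1 and 0. The GC box thus differed more between these groups than TGANTCA did. ITGA6 held the GC box 3 times and LAMA3 and LAMB3 once each, none of the 3 held TATAAA, and in LAMA3 the E-box at -73 overlaps the AP-1 letters at -69. The deposited values are per gene and do not separate transcripts from different starts. Such matches describe the letters only and say nothing of binding in these cells.

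The remaining laminin α chains differed in the same direction. LAMA5, the chain of the laminins most widespread under adult epithelia, was at 11.4 or 113.6 TPM in RC77 T/E compared with 1.63 or 16.3 TPM in MDA PCa 2b, a ratio of 6.97. LAMA1, typical of embryonic basement membranes, was at 0.371 TPM in MDA PCa 2b, compared with 11.2 TPM in RC77 T/E, a log2 ratio of 3.16. LAMA2 and LAMA4, chains of muscle and vessel laminins, were under 1 TPM in both, at most 0.318 TPM. ADRM1 overlaps LAMA5 on the opposite strand. At its lowest mark it was at 83.8 TPM in MDA PCa 2b against 118.8 TPM in RC77 T/E, above LAMA5 at either mark in each line.

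The β and γ chains shared by most laminins were the ones with the smallest differences, apart from LAMB1. LAMB1 was at 16.5 or 165.2 TPM in RC77 T/E compared with 1.37 or 13.7 TPM in MDA PCa 2b, a ratio of 12.1. LAMB2, which can take the place of β1 in a trimer, was at 46.8 TPM in MDA PCa 2b, compared with 36.7 TPM in RC77 T/E, 1.27 times as high in MDA PCa 2b. LAMC1, the γ chain of most trimers, was at 13.3 or 132.8 TPM in MDA PCa 2b against 10.6 or 105.8 TPM in RC77 T/E, 1.26 times as high in MDA PCa 2b. With all genes centred on their median the log2 ratios of LAMB2 and LAMC1 were -0.19 and -0.15, on the same side as before. LAMC3 was at 2.20 TPM in RC77 T/E compared with 0.0164 TPM in MDA PCa 2b, a log2 ratio of 1.65, and LAMB4 was at 0.0463 and 0.0166 TPM. DLD overlaps LAMB1 on the opposite strand and was at 5.73 and 3.61 TPM at its lowest mark.

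**Figure D3:**
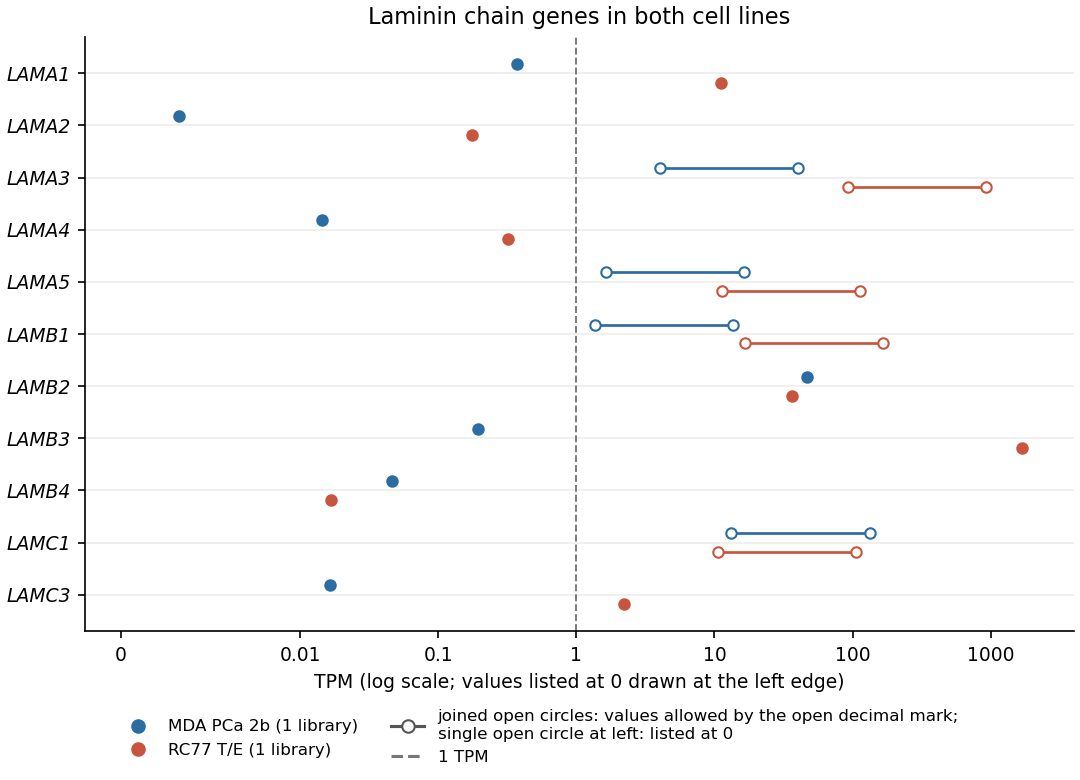
TPM of the 11 laminin chain genes on a log axis, blue for MDA PCa 2b and red for RC77 T/E, with the same symbols as for the integrins and a dashed line at 1 TPM. LAMB3 has the widest gap, from 0.195 to 1702 TPM, and LAMB2 and LAMC1 lie close together.

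Complexes were then read from the chains that reached 1 TPM. Of 24 integrin heterodimers known to form, both chains were expressed for 8 in MDA PCa 2b against 10 in RC77 T/E. The 8 complete in both lines were α1β1, α2β1, α3β1, α5β1, α6β1, αVβ1, α6β4 and αVβ5, and RC77 T/E added αVβ6 and αVβ8. By ligand, 3 of 4 laminin-binding and 2 of 4 collagen-binding heterodimers were complete in each line, and of 8 RGD-binding ones 3 were complete in MDA PCa 2b against 5 in RC77 T/E. None of the 6 leukocyte heterodimers and neither of those built on α4β1 and α9β1 was complete in either line. ITGB2 in RC77 T/E and ITGAE in both lines were thus expressed without a partner at 1 TPM.

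Of 13 laminin trimers considered, all chains were expressed for 4 in MDA PCa 2b against 7 in RC77 T/E. The 4 complete in both were laminin-311, laminin-321, laminin-511 and laminin-521, all built on LAMC1. Laminin-111 and laminin-121, with LAMA1, and laminin-523, with LAMC3, were complete in RC77 T/E alone. Laminin-511 and laminin-521 are ligands of α3β1, α6β1 and α6β4, which were complete in the same cells. At a threshold of 5 TPM, with open marks at their lowest place, 1 heterodimer and 0 trimers were complete in MDA PCa 2b, and with open marks at their highest place 6 and 4. RNA at 1 TPM for every chain does not show that the protein complex forms.

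**Figure D4:**
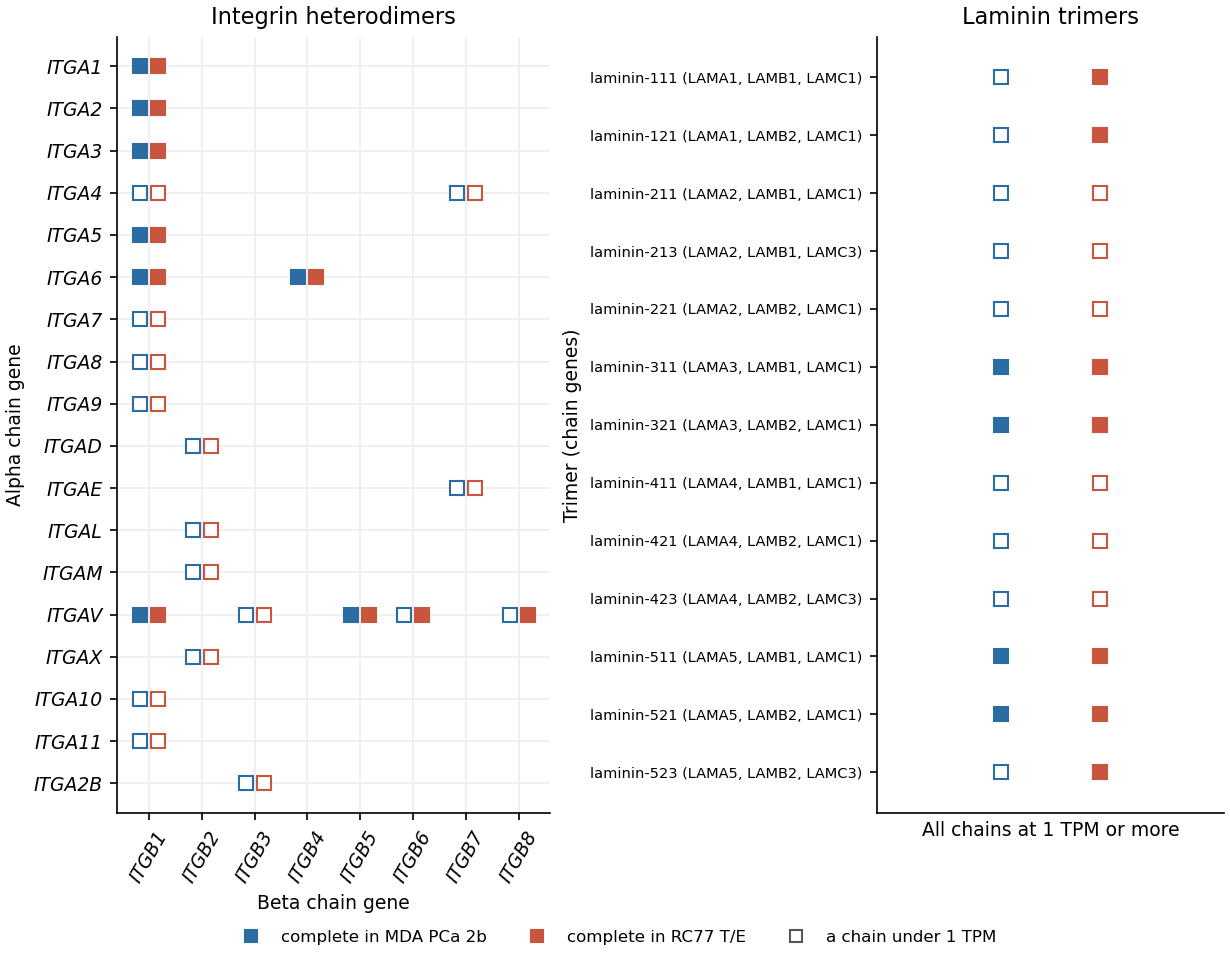
Filled squares mark the integrin heterodimers (left, α chain against β chain) and laminin trimers (right) whose chains were all at 1 TPM or more, blue in MDA PCa 2b and red in RC77 T/E, and open squares those with a chain under 1 TPM. The 2 heterodimers filled in red alone are αVβ6 and αVβ8, and the trimers are laminin-111, laminin-121 and laminin-523.

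The other hemidesmosome components were examined beside α6β4. COL17A1, the transmembrane collagen XVII, was at 0.0424 TPM in MDA PCa 2b, compared with 523.9 TPM in RC77 T/E. DST, whose epithelial isoform BP230 links to keratin, was at 1.90 TPM in MDA PCa 2b against 148.2 TPM in RC77 T/E, 78.2 times as high. PLEC, plectin, was at 3.26 or 32.6 TPM and 26.2 or 262.1 TPM, a ratio of 8.04. All 3 were higher in RC77 T/E, as ITGA6 and ITGB4 were. CD151, a tetraspanin that associates with laminin-binding integrins, was at 26.4 or 264.2 TPM in RC77 T/E compared with 40.7 or 406.8 TPM in MDA PCa 2b, 1.54 times as high in MDA PCa 2b. The basal keratins KRT5 and KRT14, to which hemidesmosomes are linked, were also higher in RC77 T/E, at 4027 and 3255 TPM beside 0.00435 and 37.4 TPM, and the part of a basal cell state in the values of the chains was not tested.

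Among 14 basement membrane partners of laminin, 6 reached 1 TPM in MDA PCa 2b against 11 in RC77 T/E. Of the 11 whose mean reached 1 TPM, 8 were higher by 2-fold or more in RC77 T/E and none in MDA PCa 2b, and the median log2 ratio was 3.32. Over all 11624 genes with such a mean the shares were 19.4% and 20.0%. NID1, COL4A1, COL4A2, COL4A6 and NTN4 were under 1 TPM in MDA PCa 2b and met the mean only through RC77 T/E. The count and the median thus follow in part from the filter. COL7A1, the collagen of anchoring fibrils that laminin-332 binds, was at 1.24 or 12.4 TPM in MDA PCa 2b, compared with 78.5 or 785.2 TPM in RC77 T/E, a ratio of 63.5. COL4A2, a chain of the collagen IV network, was at 0.452 TPM and 55.0 TPM. Its log2 ratio of 5.27 lies between the 5.15 and 5.88 of COL7A1 at its lower and higher mark. Not all collagen IV chains differed so, as COL4A5 was at 22.0 and 28.3 TPM, a ratio of 1.29. The laminin receptors that are no integrins were within 2-fold. DAG1, dystroglycan, was at 37.6 or 376.3 TPM and 31.1 or 311.02 TPM, 1.21 times as high in MDA PCa 2b, and BCAM, which binds laminins with LAMA5, was 1.31 times as high there. Of 7 fibroblast and muscle markers, 1 reached 1 TPM in MDA PCa 2b against 2 in RC77 T/E, with a sum of 3.48 and 12.1 TPM. COL1A1 was at 0.554 and 8.24 TPM and ACTA2 at 1.27 and 2.92 TPM, both higher in RC77 T/E. COL3A1 and DCN were under 1 TPM in both lines and higher in MDA PCa 2b. Of 6 endothelial markers, none reached 1 TPM, and their sum was 0.272 and 0.958 TPM.

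Ligands outside the laminins were examined in a further list. Of 16 RGD and other matrix ligands in the table, 5 reached 1 TPM in MDA PCa 2b against 8 in RC77 T/E. Of the 7 whose mean reached 1 TPM, 6 were higher by 2-fold or more in RC77 T/E and the median log2 ratio was 3.46. Over all genes with such a mean the share was 19.4%. TNC and THBS2 were under 1 TPM in MDA PCa 2b and met the mean only through RC77 T/E. Fibronectin, FN1, the ligand of α5β1, was the highest of the list in both lines and the one within 2-fold, with a ratio of 1.23. The gap in its receptor chain ITGA5, at 35.2, was thus far wider than that of the ligand. THBS2, thrombospondin 2, had the largest log2 ratio of the list, with 0.0374 TPM in MDA PCa 2b against 74.1 TPM in RC77 T/E. TGFB1, whose latent form binds αVβ6 and αVβ8, was at 1.31 or 13.1 TPM in MDA PCa 2b against 60.5 or 605.5 TPM in RC77 T/E, a ratio of 46.1, and stands outside the rule for named genes.

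Cell surface ligands of leukocyte integrins numbered 11. Of these 4 reached 1 TPM in MDA PCa 2b against 6 in RC77 T/E. Of 5 whose mean reached 1 TPM, 3 were higher by 2-fold or more in RC77 T/E, with a median log2 ratio of 1.38. Over all genes with such a mean the share was 19.4%, and ICAM5 met the mean only through RC77 T/E. ICAM1, a ligand of β2 integrins, was at 32.0 or 320.2 TPM in RC77 T/E compared with 1.01 or 10.1 TPM in MDA PCa 2b, a ratio of 31.8. ICAM5, another member of the ICAM family, was at 0.315 and 30.8 TPM. Its log2 ratio of 4.60 lay between the 4.04 and 4.86 of ICAM1 at its lower and higher mark. ICAM3 was at 5.73, 57.3 or 573.3 TPM in MDA PCa 2b against 2.85, 28.5 or 284.9 TPM in RC77 T/E, 2.01 times as high in MDA PCa 2b. CDH1, E-cadherin, the ligand of αEβ7, was at 11.8 or 117.5 TPM and 14.2 or 142.2 TPM, a ratio of 1.21. So ICAM1 was far higher in RC77 T/E, ICAM3 of the same list was higher in MDA PCa 2b, and the αE ligand differed by less than 2-fold.

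The listed cytoplasmic adaptors and regulators of integrins had a lower median ratio than the chains. Of 21 such genes in the table, 13 reached 1 TPM in MDA PCa 2b against 15 in RC77 T/E. Of 15 whose mean reached 1 TPM, 4 were higher by 2-fold or more in RC77 T/E against 1 in MDA PCa 2b, with a median log2 ratio of 0.68. Over all genes with such a mean the shares were 19.4% and 20.0%. These values have open marks at their lowest place. At the highest place ZYX and TNS3 also passed 2-fold in RC77 T/E, with log2 ratios of 1.125 and 1.019. PARVA passed it there in MDA PCa 2b, at -1.091. Among all 11624 genes, 2453 and 2659 passed it at that place. How near the adaptors lie to all genes thus depends on the marks. TNS4 and FERMT1 met the mean only through RC77 T/E. TNS4, a tensin of epithelial cells, was at 0.158 TPM in MDA PCa 2b, compared with 134.7 TPM in RC77 T/E, a log2 ratio of 6.87. LIMS1, the PINCH1 protein that binds integrin-linked kinase, was at 28.1 or 280.9 TPM in MDA PCa 2b against 12.7 or 126.6 TPM in RC77 T/E, 2.22 times as high in MDA PCa 2b. SHARPIN, which holds β1 integrins inactive, was at 40.4 or 404.5 TPM and 22.2 or 222.4 TPM, 1.82 times as high in MDA PCa 2b. FERMT1, the epithelial kindlin, was at 42.5 TPM in RC77 T/E compared with 0.0647 TPM in MDA PCa 2b, and like TGFB1 it was named after its values were seen. TLN1 and TNS2 were not analysed here, nor were CCN1 and CCN2 of the matrix ligands.

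**Figure D5:**
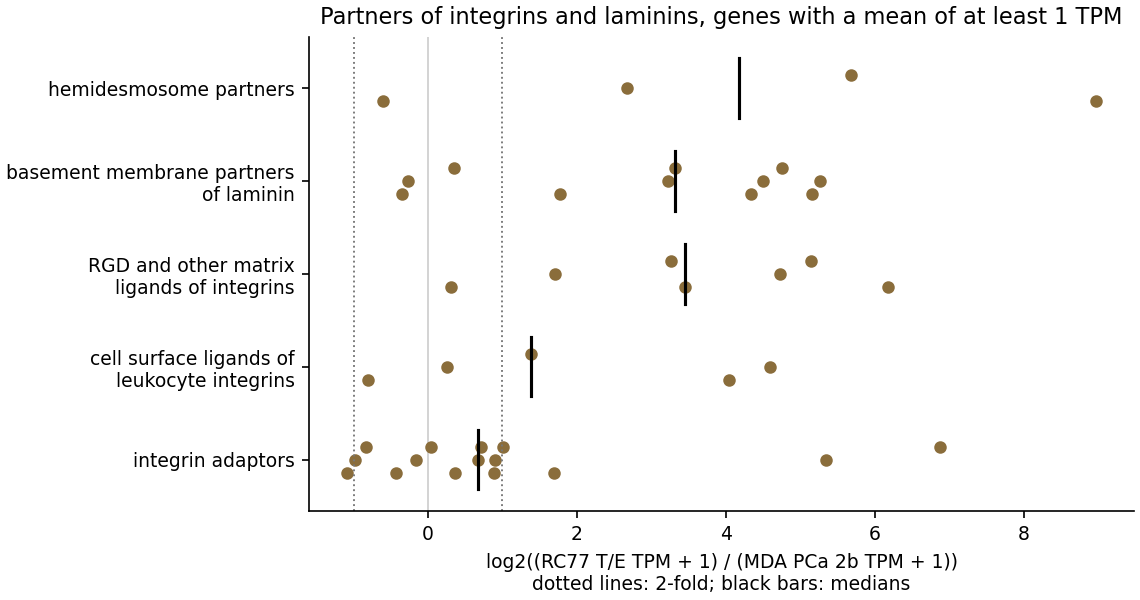
Each point is the log2 ratio of RC77 T/E over MDA PCa 2b (pseudocount 1 TPM) of a gene whose mean reached 1 TPM in 1 of 5 lists of partners, black bars are medians and dotted lines mark 2-fold. The hemidesmosome, basement membrane and matrix ligand lists have medians of 4.18, 3.32 and 3.46, the leukocyte ligand list 1.38 and the adaptor list 0.68. Every list holds genes that met the mean only through RC77 T/E, which raises its median.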

How the data were processed

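Total RNA of each cell line, with 1 library for RC77 T/E and 1 for MDA PCa 2b, was made into paired-end libraries with a directional kit. The submitters' processing notes list CASAVA, FastQC 0.11.9, Trimmomatic 0.38 and Salmon 1.2.0 with GRCh38. The annotation release is not given in the sources used here, and the row identifiers have the form that Cufflinks gives. The authors deposited TPM per locus for both cell lines with their mean and standard error, and no counts were used, so depth and its precision are unknown. All library columns of the table were used.

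The design had assumed plain TPM, but 10361 values of MDA PCa 2b and 11082 of RC77 T/E were written with commas and no decimal mark. Every position leaving 1 to 3 digits before the mark was tried and kept where the deposited mean and standard error came out. Of 22791 rows, 16284 had 1 position and 6507 had 2 or 3. On 5000 rows made by computer under the same rules, the 4156 with 1 position had the true one, and the positions of all 5000 included it. That outcome follows from the rules. Whether the deposited values keep those rules was not tested with them. Open marks were taken at the lowest position in counts and medians. The 87 rows that repeat a locus were dropped, and loci sharing a symbol were added up. A few genes are not reported here and stay out of the counts and medians of the chains, complexes and marker lists.

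A chain was called expressed at 1 TPM. The log2 ratio used a pseudocount of 1 TPM, which understates differences of low genes, and counts and medians cover genes whose mean reached 1 TPM. No test was made. Heterodimers and trimers are those of lists of 24 and 13 known complexes. The chain genes, complexes and lists were chosen with earlier results of these data known. Named are all chains at 1 TPM or more, the others by range, all hemidesmosome partners, overlapping genes, and per list the genes highest in each library or at either end of the log2 ratios. Positions are the deposited ones on GRCh38: all 37 genes had the same chromosome in GENCODE release 29, from which strands and overlaps were taken. Promoters are from RefSeq on GRCh38.p14, and protein sequences were not used here. Alternatives were thresholds of 0.5 and 5 TPM, a pseudocount of 0.1 TPM, median centring, upper quartile scaling, the highest positions, the largest locus and all genes above 0. Python 3.11.15, numpy 2.4.6 and matplotlib 3.10.9 were used.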

Additional observations from a re-analysis of the deposited data

How the results depend on the processing

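Of the 21 chains whose mean reached 1 TPM, none changed direction under another pseudocount, centring, upper quartile scaling, highest positions or the largest locus. With a threshold of 5 TPM and open marks at their lowest position, the counts in MDA PCa 2b went from 10 to 2 integrin chains, from 5 to 2 laminin chains, from 8 to 1 heterodimers and from 4 to 0 trimers, since most of its expressed chains have open marks. At their highest position the counts were 7, 5, 6 and 4. Over all genes above 0 the median log2 ratio was 0.45 for the integrin and 1.65 for the laminin chains, because chains under 1 TPM enter. With a pseudocount of 0.1 TPM the median of the laminin chains was 3.90. The number of chains higher by 2-fold or more in RC77 T/E was 15, and between 15 and 17 under the alternatives. The log2 ratio moved by over 1.5 times in 4 of 21 chains with a pseudocount of 0.1 TPM (ITGAE, ITGB2, ITGB8 and LAMC3) and in 4 with centring or scaling (ITGA1, ITGAE, LAMB2 and LAMC1). No paired analysis was possible because only 1 library was made of each cell line. Unknown depth limits all values under 1 TPM, and the open marks limit levels, quotients of chains within a cell line and ratios with a pseudocount, but not plain ratios between the cell lines.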
